A study of Mus with 17 samples.

Results

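The protein part of the cytosolic ribosome was described gene by gene in mouse liver after a long western diet. Members were taken by symbol: Rpl or Rps followed by a number, with at most a short suffix, together with Rplp0, Rplp1, Rplp2 and Rpsa, leaving out pseudogene symbols ending in -ps and the Rps6k kinases. The rule found 85 of the 24937 genes in the files. Of these, 77 encode the standard proteins of the ribosome, 46 of the large and 31 of the small subunit, and are called core members below. The other 8 (Rpl3l, Rpl7l1, Rpl10l, Rpl22l1, Rpl32l, Rpl39l, Rps27l and Rps4l) carry the name of a core protein with an added l, and RefSeq lists Rps4l as a transcribed pseudogene.

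RNA of whole, snap-frozen liver was sequenced from 17 male C57BL6/JBomTac mice, 1 library per mouse. The 8 mice of the western diet group had that diet and fructose in the drinking water (42 g/L) for 52 weeks, a regimen used to bring on advanced steatohepatitis. The 9 chow mice were matched in age and had standard chow and pure water. All 17 were fasted overnight before they were killed, so the levels are those of fasted liver. The model is dietary and carries no engineered allele.

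Each cytosolic ribosome has a large subunit, which joins amino acids at the peptidyl transferase centre and passes the chain out through the exit tunnel, and a small subunit, which reads the mRNA. The core proteins are made in closely matched numbers from separate genes. Their mRNAs begin with a terminal oligopyrimidine (TOP) stretch, through which mTORC1 sets their translation, so that mRNA level and protein output can part. In liver, ribosomes make the plasma proteins, and fasting lowers translation.

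Total counts ranged from 3604212 to 9071908.5 over the libraries, with means of 6468850 ± 1756840 (SD, n = 8, western diet) and 6683600 ± 1136420 (SD, n = 9, chow). Core members had between 46.5 counts (Rps29) and 4031 counts in a library, so counting error was small for nearly all of them. Of the hepatocyte markers, 6 of 6 were tested, and their summed level was 7039 to 11202 CPM (counts scaled to library size with TMM factors) on western diet and 9102 to 12095 CPM on chow, with 3 lower and none higher. All 5 macrophage markers (423 to 720 against 124 to 237 CPM), all 5 T and NK cell markers (12.6 to 84.1 against 4.96 to 17.8 CPM), all 4 bile duct markers and all 4 stellate markers were higher on western diet. Pancreatic acinar markers reached 4520 CPM in western diet library 5 and 13866 CPM in chow library 2, against at most 286 CPM in any other library on western diet and 492.98 CPM in any other on chow. No marker was at 0 in all libraries.

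Under TMM scaling, ribosomal protein transcripts differed little between the diets. Of the 81 members tested, 3 rose on western diet (Rpl3, Rpl31 and Rps29), 1 fell (Rpl7l1) and 77 did not pass an adjusted p of 0.05 in edgeR's quasi-likelihood test. That is 4.94% of the members, 3.70% higher and 1.23% lower, beside 48.4% of all 13204 tested genes, 24.8% higher and 23.6% lower. With library size in place of TMM scaling 25 members rose and 0 fell, beside 34.0% of all tested genes higher and 12.2% lower. Without chow library 8, under TMM scaling, 10 rose and 1 fell, beside 24.5% and 23.5%. At an unadjusted p under 0.05 in the main fit, 5 members differed: Rpl3, Rpl31, Rps29, Rpl7l1 and Rpl39. Both DESeq2 and limma-voom called Rpl3, Rps29 and Rpl7l1 and no others. In no member (0.00%) did the 8 western diet libraries lie wholly above or wholly below the 9 chow libraries, whereas 7.01% of all tested genes lay wholly above and 5.03% wholly below. The median log2 difference, western diet minus chow, was 0.033 over the members and -0.0091 over all tested genes. In whole liver, fewer cells of a type and less RNA per cell cannot be told apart. The macrophage, T and NK cell, bile duct and stellate markers were all higher on western diet, and 3 of 6 hepatocyte markers were lower. None of 5 B cell markers or 8 tested pancreatic acinar markers passed, and 1 of 5 erythroid markers fell. The part of cell types in these values was not tested.

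The members' log2 differences ran from -0.17 (Rpl7l1) to 0.34 (Rps29), 57 above 0 and 24 below, with a median SE of 0.09. In 79 of 81 members (97.5%) the 95% confidence interval lay inside a 1.5-fold change either way, which was so for 60.0% of all tested genes. The exceptions were Rps29 and Rps4l. Inside a 1.25-fold change lay 72 members (88.9%), beside 27.4% of all tested genes. Among the 6305 tested genes whose average log2 CPM was 5 or more, 49.1% were called and the median log2 difference was -0.11. In that more abundant set the interval lay inside a 1.5-fold change for 77.2% and inside a 1.25-fold change for 40.7%.

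**Figure D1:**
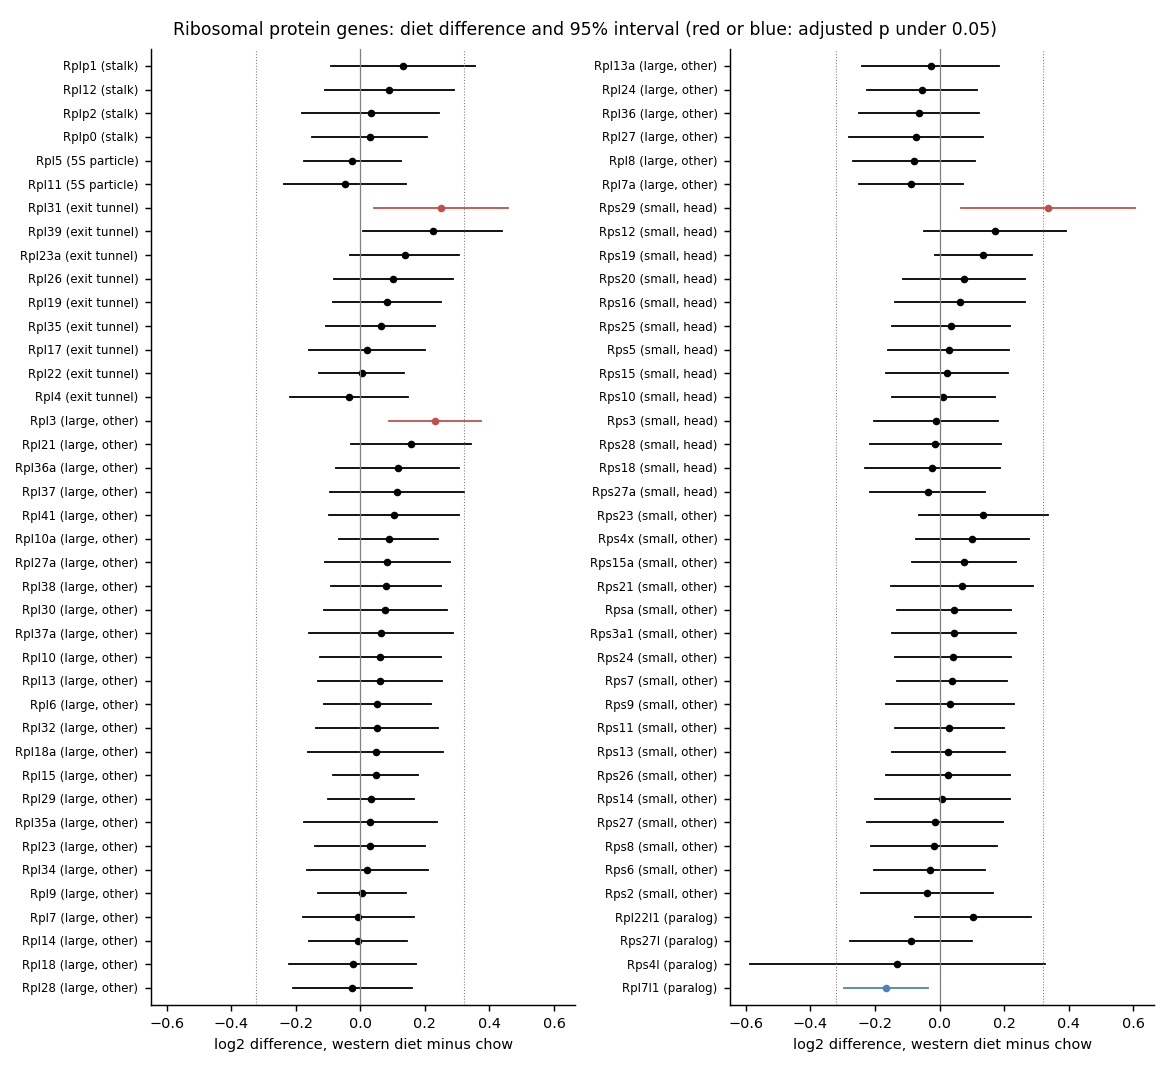
Fitted log2 difference, western diet minus chow, of tested members, grouped by role, with points for the estimate, bars for the 95% confidence interval, red or blue for an adjusted p under 0.05 and dotted lines at a 1.25-fold change. All points lie between -0.17 and 0.34, with Rpl3, Rpl31 and Rps29 in red and Rpl7l1 in blue.

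Rpl3 had the smallest adjusted p of the members. It encodes a large-subunit protein that reaches toward the peptidyl transferase centre and is among the earliest to join the assembling subunit. On western diet its level was 155 CPM in the lowest, 182 CPM in the median and 198 CPM in the highest library, and on chow 139, 153 and 189 CPM. All 8 western diet libraries lay above the chow median and 3 above the chow maximum, which came from chow library 8. The means were 180.4 ± 15.4 (SD, n = 8) and 154 ± 15.6 CPM (SD, n = 9). Rpl3 rose 1.17-fold (95% confidence interval 1.06 to 1.30), by 0.23 ± 0.068 (SE) on the log2 scale, with an edgeR adjusted p of 0.00862. Its call was kept without any 1 library, with adjusted p of 0.00121 to 0.0194.

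Rpl31 and Rpl39 belong to the proteins of the exit tunnel. Rpl31 sits at the tunnel's outer rim, where factors that receive the new chain dock, and Rpl39 lines the tunnel wall. Rpl31 had 25.8, 28.3 and 41.8 CPM in the lowest, median and highest western diet library and 19.5, 25.8 and 29.4 CPM on chow. Of the western diet libraries, 7 lay above the chow median and 3 above the chow maximum. Rpl31 rose 1.19-fold, by 0.25 ± 0.10 (SE) on the log2 scale, with an edgeR adjusted p of 0.0435, the closest inside the threshold. The call was lost in 9 of 17 fits without 1 library (western diet 1, 3, 4 or 7 and chow 3, 4, 5, 6 or 7), where adjusted p reached 0.0981.

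Rpl39 was the member closest outside the threshold. Its levels were 32.2, 36.5 and 56.8 CPM on western diet and 28.5, 33.2 and 44.7 CPM on chow, with overlap over most of the range. The log2 difference was 0.22 ± 0.10 (SE), with an edgeR adjusted p of 0.0794. Rpl39 passed without western diet library 7 or without chow library 8, at an adjusted p down to 0.0210. Among all 9 exit-tunnel members, 1 rose and none fell, and the median log2 difference was 0.083, the highest of the role groups. The remaining members of the group included Rpl23a at 0.14 and Rpl4, which extends a loop into the tunnel, at -0.035.

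The small subunit had a single member that passed. Rps29, a small zinc-binding protein of the head near the mRNA path, was at 12.1, 15.6 and 21.3 CPM in the lowest, median and highest western diet library and at 8.97, 12.4 and 18.3 CPM on chow. It had the fewest counts of the core members, and 7 western diet libraries lay above the chow median and 2 above the chow maximum. Rps29 rose 1.26-fold (95% confidence interval 1.05 to 1.52), by 0.34 ± 0.13 (SE) on the log2 scale, with an edgeR adjusted p of 0.0371. The call was lost in 8 of 17 fits without 1 library (western diet 1, 2 or 4 and chow 3, 4, 5, 6 or 7), where adjusted p reached 0.0798.

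The 13 other proteins of the head did not pass. They included Rps12 at a log2 difference of 0.17, Rps19 at 0.14 and Rps3, which lines the mRNA entry, at -0.010. All 14 head members together had a median of 0.031. The 17 other small-subunit members had a median of 0.032 and none passed; among them were Rps6, the protein that S6 kinase phosphorylates, at -0.031 and Rpsa, which is also known as a laminin receptor, at 0.045.

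**Figure D2:**
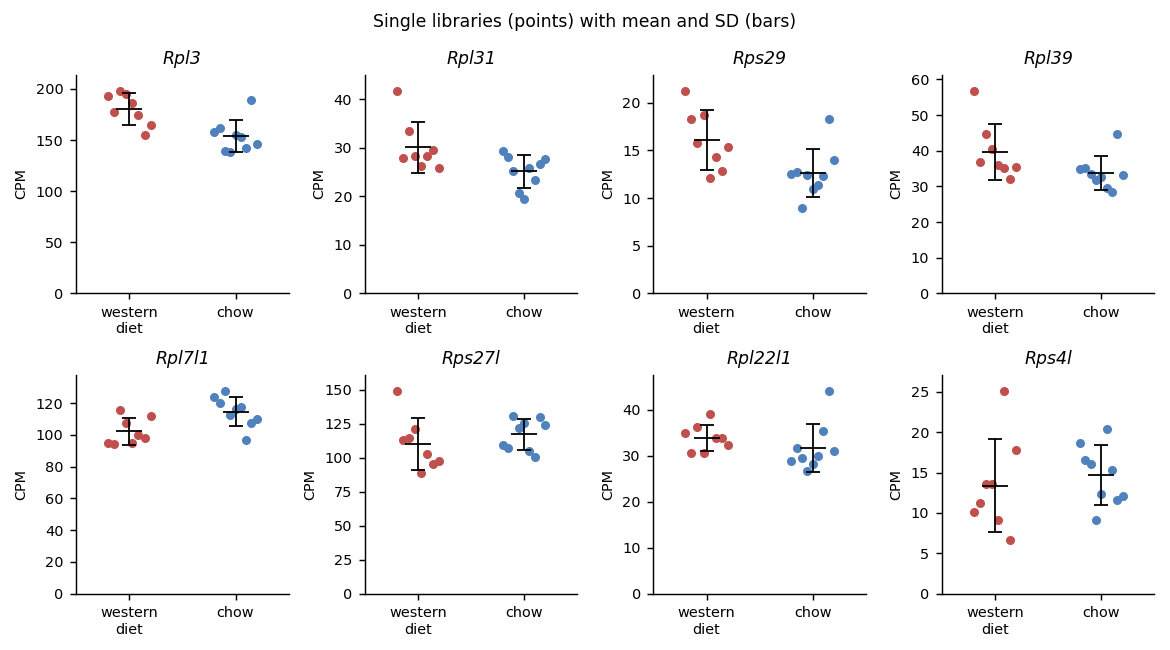
Level (CPM, linear axes from 0) of 8 members, the 4 that passed, Rpl39 and the 3 other tested members outside the core, with a point per library (red for western diet, n = 8, blue for chow, n = 9) and bars for the mean ± SD. The diets overlap in every panel. All 8 western diet libraries lie above the chow median in Rpl3 (153 CPM) and in Rpl22l1 (29.8 CPM).

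The stalk of the large subunit recruits the GTPases of translation. Its base is Rplp0, onto which Rplp1 and Rplp2 bind, and Rpl12 lies beside it. Rplp0 was at 289, 342 and 444 CPM in the lowest, median and highest western diet library and at 294, 343 and 419 CPM on chow. The log2 difference was 0.028 ± 0.086 (SE), with an edgeR adjusted p of 0.808. Rplp1 differed by 0.13 ± 0.11, Rplp2 by 0.033 ± 0.10 and Rpl12 by 0.090 ± 0.095 (SE) on the log2 scale, with edgeR adjusted p of 0.321 to 0.815. None of the 4 stalk members passed, and the libraries of both diets overlapped almost fully in each.

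Rpl5 and Rpl11 form a particle with the ribosome's 5S RNA. Outside the ribosome that particle binds Mdm2, which links faulty assembly to p53. Rpl5 was at 77.9, 84.4 and 100.5 CPM in the lowest, median and highest western diet library and at 78.1, 83.1 and 107 CPM on chow. Its log2 difference was -0.025 ± 0.072 (SE), with an edgeR adjusted p of 0.797. Rpl11 was at 64.4, 70.3 and 96.9 CPM on western diet and at 63.7, 71.3 and 100.5 CPM on chow. Its log2 difference was -0.047 ± 0.090 (SE), with an edgeR adjusted p of 0.696. In both genes the ranges nearly coincided, and both intervals lay inside a 1.25-fold change.

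The 31 other large-subunit members had 1 that rose, Rpl3, and a median log2 difference of 0.048.

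The members with an added l in their names had the only fall. Rpl7l1 is related to Rpl7 and takes part in assembly of the large subunit. Its level was 94.0, 99.2 and 116 CPM in the lowest, median and highest western diet library and 96.7, 116 and 128 CPM on chow. All 8 western diet libraries lay below the chow median, 3 lay below the chow minimum, and 5 chow libraries lay above the western diet maximum. Rpl7l1 was 1.12-fold lower on western diet, a log2 difference of -0.17 ± 0.063 (SE), with an edgeR adjusted p of 0.0349. The call was lost in 10 of 17 fits without 1 library (western diet 1, 2, 5, 6 or 7 and chow 1, 2, 3, 5 or 6), where adjusted p reached 0.0819. It was also lost without both libraries with pancreatic transcripts, at an adjusted p of 0.0999, and with library size in place of TMM scaling, at 0.622.

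Rps27l, which p53 is known to induce, was at 88.5, 108 and 149 CPM on western diet and 100.4, 122 and 131 CPM on chow. The log2 difference was -0.089 ± 0.091 (SE), with an edgeR adjusted p of 0.438. Rpl22l1, the partner of Rpl22 that can take its place in the ribosome, was at 30.6, 33.8 and 39.0 CPM on western diet and 26.6, 29.8 and 44.1 CPM on chow. It differed by 0.10 ± 0.087 (SE) on the log2 scale, with an edgeR adjusted p of 0.341. Its level was above the chow median in all 8 western diet libraries. Rpl22l1 passed without chow library 8, at an edgeR adjusted p of 0.0444, and with library size alone. Rps4l was at 6.65, 12.4 and 25.1 CPM on western diet and 9.15, 15.3 and 20.4 CPM on chow. Its difference of -0.13 ± 0.22 (SE) on the log2 scale had the largest SE of the named members and an edgeR adjusted p of 0.651. These 3 genes overlapped between the diets over most of their range.

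Set against its core namesake within a library, each of these genes had a ratio that differed between the diets by less than its SD within a diet. The log2 ratio of the levels, each plus 0.5 CPM, for Rpl22l1 to Rpl22 was -2.21 ± 0.16 in the 8 western diet and -2.31 ± 0.17 (SD) in the 9 chow libraries. For Rps27l to Rps27 it was 0.68 ± 0.13 and 0.76 ± 0.13. For Rpl7l1 to Rpl7 it was -1.26 ± 0.21 and -1.10 ± 0.17, and for Rps4l to Rps4x -3.97 ± 0.59 and -3.68 ± 0.46. These ratios are not divided by transcript length and compare diets only. No test was made of them.

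The other 4 members fell below the filter on low counts. Rpl10l, whose expression is known from testis, had 0 to 1 count in every library and was at 0 in 5 western diet and 7 chow libraries. Rpl39l, also known from testis, was at 0 in all 8 western diet libraries and had at most 1 count on chow. Rpl3l, the partner of Rpl3 in heart and skeletal muscle, reached 3.5 counts in a western diet library and 3 in a chow library. Rpl32l reached 1 and 4 counts. A count of 0 allows up to 3 counts, or 0.314 to 0.850 CPM depending on the library, so these genes were at or near the floor.

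Positions were taken from RefSeq for GRCm38.p6, the assembly also called mm10. Rpl3 lies on chromosome 15 from 80077781 to 80083406 and holds 3 snoRNA genes in its span. Rpl31 lies on chromosome 1 from 39367851 to 39371911 and overlaps Tbc1d8. Rps29 lies on chromosome 12 from 69157722 to 69159186, Rpl7l1 on chromosome 17 from 46773907 to 46782656 and Rpl39 on chromosome X from 37082518 to 37085222. The deposited counts are per gene, so they do not place reads within exons or introns.

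The core genes share a compact layout. They lie on 19 chromosomes, 14 of them on chromosome 7, and their median span is 3175 bp, beside 23166 bp for the 12873 other tested genes with a span. A total of 30 hold snoRNA genes, 59 in all. Many have pseudogene copies: 62 core genes have at least 1 RefSeq pseudogene entry under their name, and Rpl31 has the most, 24. In addition, 17 core genes overlap another protein-coding or long noncoding gene. How the counting treated reads that match several copies, and strand, is not given in the sources used here, so the values of such genes, Rpl31 among them, may include reads of copies or neighbours.

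The larger variation was between libraries of the same diet, where core members moved together. The mean log2 deviation of the 77 core members from their own averages ran from -0.21 to 0.39 on western diet and from -0.24 to 0.32 on chow, a range of 1.52-fold and 1.47-fold. In western diet library 1 all 77 core members were above their own mean, and 76 were in chow library 8. In western diet libraries 7 and 8 and in chow library 6 only 1 was above, and in chow library 7 none. The mean deviation was 0.023 ± 0.20 over the 8 western diet libraries and -0.021 ± 0.15 (SD) over the 9 chow libraries, a difference well inside the spread.

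**Figure D3:**
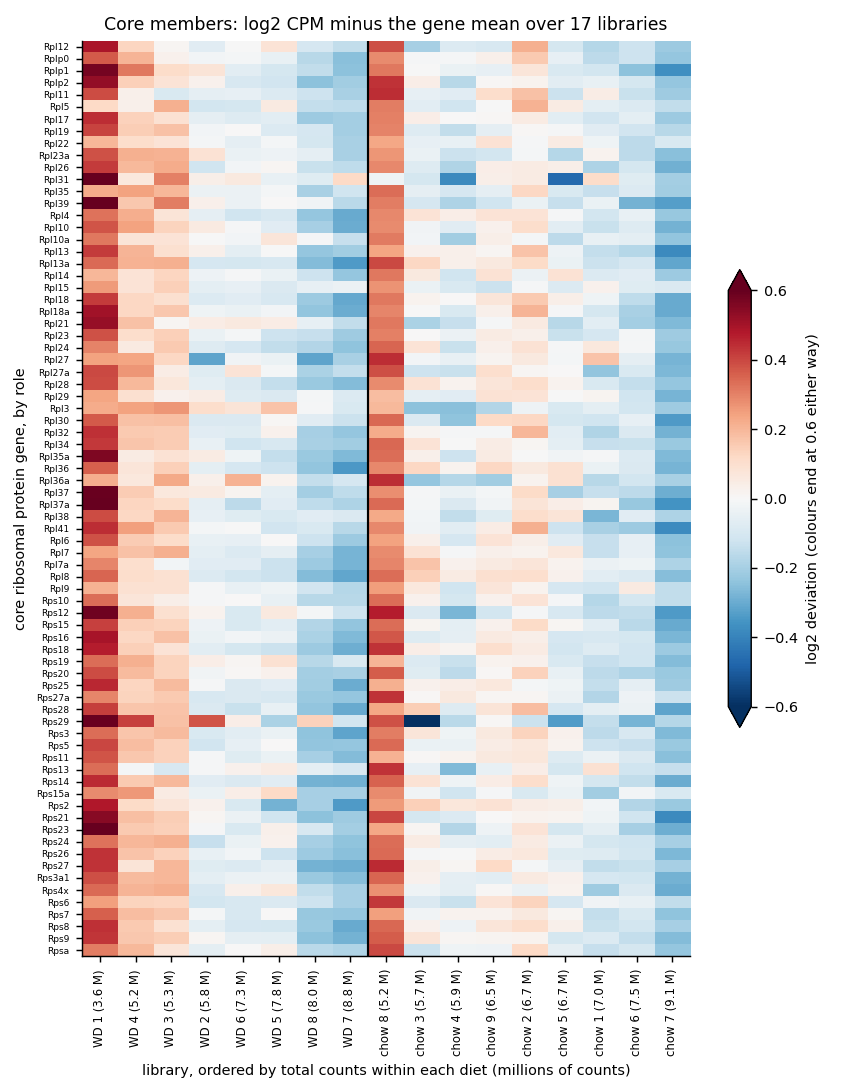
Log2 level of core members (rows, by role) minus its mean over the 17 libraries (columns, western diet then chow, from the shallowest to the deepest), in red above and blue below the mean with colours ending at 0.6. Columns differ as a block: western diet library 1 is above the mean in every row and chow library 7 in none.

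Pairs of core members were correlated over the 17 libraries after each diet's mean was removed. The median Pearson r over 2926 pairs was 0.89, and 100% of pairs were above 0. Within the large subunit the median was 0.87 and within the small subunit 0.92. The same measure was 0.42 over 24 other TOP mRNAs, 0.17 over 78 mitochondrial ribosomal protein genes, 0.12 over 38 initiation factors and 0.014 over the 6305 genes whose average log2 CPM was 5 or more. These are descriptions: the genes share each library, its depth and its scaling. Median within-diet SD on the log2 scale was 0.19 for a core member and 0.064 after the library's mean over the core was removed.

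Members differed in how closely they followed the rest. With the mean of the other core members, 72 of 77 core members had an r above 0.8 over the 17 libraries, and Rps15 had the highest, 0.99. The lowest were Rps4l at -0.12, Rpl7l1 at 0.040 and Rpl22l1 at 0.37, all outside the core. Within the core the lowest were Rpl31 at 0.58, Rps29 at 0.69, Rpl36a at 0.73, Rps13 at 0.74 and Rpl3 at 0.79. All 4 members that passed the diet test were thus among those below 0.8. These values share each library and are given with no test.

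This shared level moved with sequencing depth. On western diet the core deviation of all 8 libraries lay in exactly the reverse order of total counts, and on chow 4 of 9 libraries did. In each diet the shallowest library was the highest and the deepest the lowest: western diet library 1 (3604212 counts) at 0.39, western diet library 7 (8818385.5 counts) at -0.21, chow library 8 (5231165.5 counts) at 0.32 and chow library 7 (9071908.5 counts) at -0.24. In the shallow libraries other gene groups deviated less. The other TOP mRNAs were at 0.14 in western diet library 1 and 0.22 in chow library 8, the mitochondrial ribosomal protein genes at 0.012 and 0.063, and 1523 other genes spanning under 5000 bp at 0.13 and 0.017. In the deep western diet libraries 7 and 8 the other TOP mRNAs lay close to the core, at -0.18 and -0.17 beside -0.21 and -0.16, and in chow library 7 they were at -0.050. The part of depth, RNA quality or the mice in this level was not tested.

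**Figure D4:**
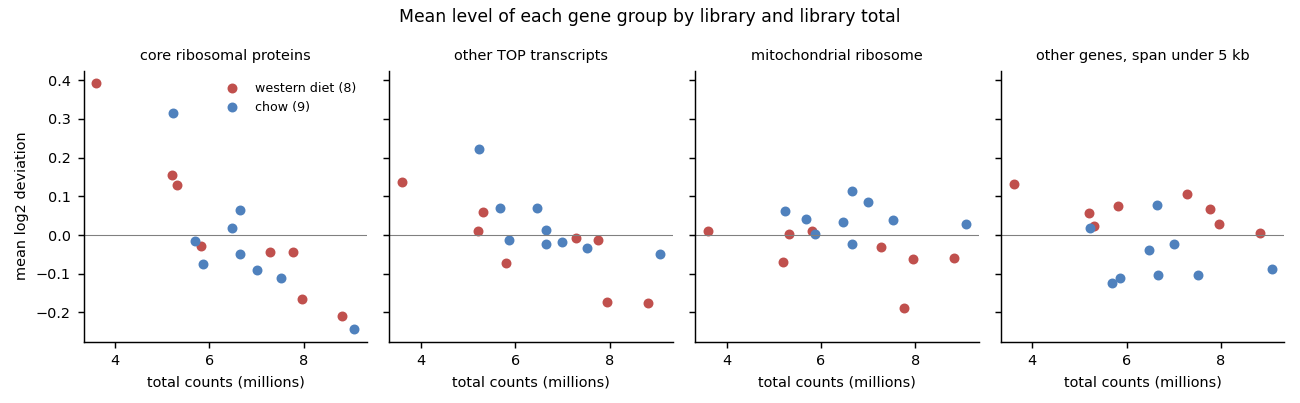
Mean log2 deviation per library against its total counts for the core members, the other TOP transcripts, the mitochondrial ribosomal protein genes and other genes spanning under 5000 bp, with a point per library (red for western diet, blue for chow). In the core panel the shallowest library of each diet is the highest (0.39 and 0.32) and the deepest the lowest (-0.21 and -0.24).

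Calls among the members changed with these libraries. Without chow library 8, 10 members rose and 1 fell, beside 24.5% of all tested genes higher and 23.5% lower. Without western diet library 1 only Rpl3 passed, beside 24.6% higher and 23.5% lower, and Rpl3 was also the sole riser without western diet library 4 or without chow library 3, 4, 5, 6 or 7. The median log2 difference over the members was -0.027 to 0.082 in the fits without 1 library.

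Several alternatives bear on the same point. In a fit with library total as a covariate, added after the data were seen, 3 members rose (Rpl3, Rpl39 and Rps29) and 6 fell (Rpl7a, Rpl7l1, Rpl8, Rpl36, Rps2 and Rps27l), beside 24.8% of all tested genes in each direction, and the members' median was -0.013. Without both western diet library 1 and chow library 8, also added later, 4 rose (Rpl3, Rpl39, Rps12 and Rps29) and none fell, beside 24.8% higher and 22.6% lower. With library size in place of TMM scaling, 25 members rose and none fell, beside 34.0% of all tested genes higher and 12.2% lower. DESeq2 called 2 members higher and 1 lower, beside 22.2% and 19.9%. A test against a 1.5-fold change (glmTreat) called no member, beside 8.39% higher and 1.48% lower. Rpl3 was called in each of these fits except the last.

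As a share of a library, the members took 0.977 ± 0.140% of TMM-scaled counts in the 8 western diet libraries and 0.960 ± 0.104% (SD) in the 9 chow libraries, a difference of 0.018 percentage points, with 3 of 8 western diet libraries above the chow median. As a share of unscaled totals they took 1.02 ± 0.107% and 0.918 ± 0.0866%, with 7 of 8 above it. The subunits kept step. The ratio of small-subunit to large-subunit counts was 0.680 ± 0.0103 on western diet and 0.679 ± 0.00801 on chow, and over all 17 libraries it ran from 0.665 to 0.697.

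Other genes of translation were read beside the members, from lists chosen for their roles. By library size alone 34.0% of all tested genes were higher and 12.2% lower, and the list counts under that scaling stand beside these shares. Of 24 other TOP mRNAs, 1 rose and 4 fell, 20.8% called (3 and 1 by library size alone), with a median of -0.068. Hnrnpa1, an RNA-binding protein, rose 1.21-fold (edgeR adjusted p of 0.00726). Eif4b, which aids the helicase that unwinds mRNA leaders, was 1.29-fold lower, at 455 ± 21.9 (SD, n = 8) against 587 ± 34.2 CPM (SD, n = 9) with no overlap (edgeR adjusted p of 1.86e-05). Without western diet library 2, 4, 6, 7 or 8 or chow library 1, 3, 4, 5, 8 or 9, only 1 or 2 of the other TOP mRNAs fell.

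Of 38 initiation factors 17 fell and 2 rose, 50% called beside 48.4% of all tested genes, with a median log2 difference of -0.11. With library size in place of TMM scaling 7 fell and 7 rose, beside 12.2% of all tested genes lower and 34.0% higher. Eif5, which triggers GTP hydrolysis at the start codon, was 1.52-fold lower, and Eif4g1, the scaffold of the cap-binding complex, 1.34-fold lower, both with no overlap between the diets. Eif4e3, a member of the cap-binding family, rose 2.96-fold, from 9.76 ± 1.45 (SD, n = 9) to 28.9 ± 6.63 CPM (SD, n = 8). Among 14 elongation and termination factors 5 fell and 1 rose, 42.9% called (2 and 3 by library size alone), with Hbs1l, which rescues stalled ribosomes, 1.51-fold lower.

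Of 85 ribosome assembly genes 21 fell and 9 rose, 35.3% called, with a median of -0.072. By library size alone 2 fell and 19 rose, beside 12.2% of all tested genes lower and 34.0% higher. Mrto4, which holds the place of the stalk during assembly, was 1.28-fold lower, and Gar1, of the pseudouridylation particles, rose 1.29-fold. RNA polymerase I and its factors, which transcribe ribosomal RNA, had 4 of 16 up and 4 down, 50% called (7 and 0 by library size alone), with Taf1c rising 1.63-fold and Taf1a 1.25-fold lower. Among 28 genes of mTOR, S6 kinase and Myc, regulators of ribosome production, 10 fell and 5 rose, 53.6% called (5 and 6 by library size alone). Rptor, the scaffold of mTORC1, and Eif4ebp2, a repressor of translation initiation, were lower by a log2 difference of -0.59 each, with no overlap. Myc rose 2.12-fold and Ddit4, an inhibitor of mTORC1, 2.17-fold.

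The mitochondrial ribosome, built from a separate set of nuclear genes, had 78 genes tested. Of these 25 fell and 3 rose, 35.9% called, with a median log2 difference of -0.095. By library size alone 4 fell and 6 rose, beside 12.2% of all tested genes lower and 34.0% higher. That scaling moved the median of all tested genes from -0.0091 to 0.12. Mrpl15 was 1.51-fold lower with no overlap, at 59.2 ± 5.69 (SD, n = 8) against 89.2 ± 5.34 CPM (SD, n = 9), and Mrpl54 rose 1.19-fold. The difference between these lists and the members was not tested.

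**Figure D5:**
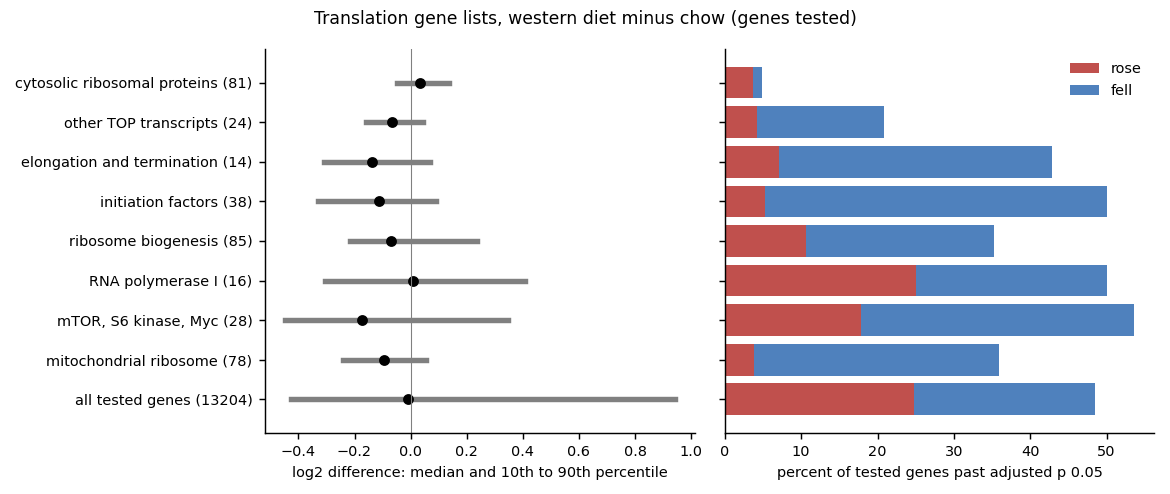
Left, the median log2 difference (point) and its 10th to 90th percentile over genes (bar) for the cytosolic ribosomal proteins, 7 other translation lists and all tested genes; right, the percent of each that rose (red) or fell (blue). The ribosomal proteins have a median of 0.033 with 4.94% called, and all tested genes a median of -0.0091 with 48.4% called.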

How the data were processed

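Whole-liver RNA of 17 mice was analysed, 8 on western diet and 9 on chow by the treatment field of the labels. The source name reads western diet for all 17 and was not used. The assembly mm10 and the tools FastQC, STAR 2.4.1c, MultiQC and HOMER are named per the submitters' processing notes. The annotation release, the strand, the options and what was done with multiply matching reads were not given in the sources used here. The deposited tables hold expected counts for each gene symbol in steps of 0.5, unscaled. Each file held 24940 rows; 3 had no value and were left out. Values were rounded to whole counts, filtered with filterByExpr (13204 genes kept) and tested two-sided with edgeR 4.0.16 in R 4.3.3 (TMM, robust dispersion, glmQLFit, glmQLFTest, diet alone, Benjamini-Hochberg over all tested genes, threshold 0.05). SE are the log2 difference over the root of F, and confidence intervals use the fit's total degrees of freedom. CPM use TMM-scaled library sizes, are not divided by length and so do not rank genes. The series describes the samples as separate mice, and p-values measure the spread between them.

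Named members are those past the threshold, those outside the core set, the stalk and 5S proteins and those nearest the threshold on each side; from other lists up to 2 that rose most and 2 that fell most were considered. Further members were named after their values were seen. Some genes of the lists are counted but not reported singly here. The part of the rule on level per coding length could not be applied. The members and gene lists were chosen with earlier results of these data known. Rpl32l was placed outside the core after the files were read. Genes were matched by symbol to RefSeq (24294 of 24937, and all 85 members). The steps were tested on simulated data, where 35 of 50 genes changed 1.5-fold and all 50 changed 2-fold were recovered, with 11 false calls among 13125 genes. No change under 1.5-fold was simulated. The members that passed changed by at most 1.26-fold, so the simulation does not show how often changes of that size are found. Alternatives were library size alone, RLE factors, TMM factors computed without the members or without the 50 most abundant genes, no filter, CPM of at least 1 in 8 libraries, DESeq2 1.42.0, limma-voom (limma 3.58.1), a surrogate variable (sva 3.50.0), an adjusted p under 0.01, glmTreat at 1.5-fold, and leaving out libraries. Tables and plots were made in Python 3.11.15 with pandas 2.3.3, numpy 2.4.6 and matplotlib 3.10.9.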

Additional observations from a re-analysis of the deposited data

Results flagged for a closer look

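Of the 34 groups of libraries checked (each named member above the low-count filter, the mean core deviation, the members' share and the subunit ratio, in each diet), 7 held a library far from the others. Chance gives about 1 in 20 groups where groups are independent. These are not, because they share the same libraries, so the 7 cannot be set against that rate. All 7 lay in western diet library 1 or chow library 8, the shallowest of their diets and the highest in ribosomal protein transcripts as a whole. In western diet library 1, Rpl11 was at 96.9 CPM (others 64.4 to 75.4), Rplp2 at 122.7 CPM (71.5 to 93.9) and Rpl12 at 146 CPM (93.8 to 114). In chow library 8, Rpl3 was at 189 CPM (others 139 to 162), Rpl22l1 at 44.1 CPM (26.6 to 35.5), Rplp2 at 115 CPM (72.1 to 87.2) and Rpl39 at 44.7 CPM (28.5 to 35.1). Chow library 8 also had the highest summed B cell markers on chow, 215 CPM, with at most 101 CPM in the other chow libraries; western diet library 1 had 39.5 CPM, near the lowest of its diet. The part of depth or of these cells was not tested.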

How the results depend on the processing

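RLE factors, TMM without the 50 most abundant genes, scaling without the members and the CPM filter each gave 3 members higher and 1 lower (24.5% to 25.1% of all tested genes higher and 22.9% to 24.1% lower). With library size alone, which moved the median of all tested genes from -0.0091 to 0.12, 25 members rose and 0 fell (34.0% and 12.2% of all tested genes), and their median was 0.16; relative to all genes it was 0.038, beside 0.042. Higher calls were then 73.5% of all calls in place of 51.2%. An adjusted p under 0.01 left 1 higher and 0 lower (19.1% and 16.1% of all tested genes), glmTreat 0 and 0 (8.39% and 1.48%), DESeq2 2 and 1 (22.2% and 19.9%), limma-voom 2 and 1 (25.4% and 23.9%), and 1 surrogate variable 6 and 1 (24.6% and 24.7%). Without a filter 1 rose and 2 fell (18.1% and 16.3% of 20211 genes), the second being Rpl32l with at most 4 counts. Leaving out each library gave 1 to 10 higher and 0 to 1 lower (all tested genes 23.3% to 25.6% and 21.4% to 24.5%), a median of -0.027 to 0.082 and a share difference of -0.021 to 0.047 percentage points. Without the libraries with pancreatic transcripts 3 rose and 0 fell (24.2% and 22.4%). In the other lists, an adjusted p under 0.01 left 9 assembly genes lower and 3 higher, and 11 mitochondrial ribosomal genes lower and 0 higher. That threshold left 6 mTOR genes lower and 4 higher, 2 polymerase I genes lower and 3 higher, and 1 other TOP mRNA lower and 1 higher. The glmTreat fit left 1 initiation factor and 2 mTOR genes higher and 0 others. With the total as covariate 8 other TOP mRNAs fell. Where these counts changed, the cause was not tested.

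Uncalled values near 0 changed sign: Rps27l with library size alone (0.031); Rpl5 with library size alone (0.099), without western diet 7 (0.00088), chow 2 (0.0028) or chow 8 (0.016), or without both libraries highest in members (0.0029); Rpl11 with library size alone (0.076) or without chow 8 (0.014); Rplp0 without western diet 1 (-0.028) or with the total as covariate (-0.014); Rplp2 likewise (-0.053 and -0.024). Over the fits without 1 library they ran from -0.061 to 0.016 (Rpl5), -0.11 to 0.014 (Rpl11), -0.028 to 0.070 (Rplp0) and -0.053 to 0.098 (Rplp2). Rpl31 was lost with DESeq2 (adjusted p of 0.0612) and limma-voom (0.0573). No paired analysis was possible because no label ties a western diet mouse to a chow mouse. Depth limits the 4 members at the floor.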
